A study of Mus musculus with 5 samples.

Results

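The enzymes of glycolysis and lactate dehydrogenase were examined on 5 dual-colour spotted arrays of mouse retina. The rule took every spot whose single gene symbol is Hk1, Hk2, Gpi1, Aldoa, Pgk1, Pgam1, Eno1, Pkm, Ldha or Ldhb and that was measured on at least 4 of the 5 arrays. Of these 10 genes, 6 had a single-symbol spot, with 10 spots between them, and 7 spots were measured on enough arrays, out of 17328 spots in all and 10036 spots tested. All 7 were measured on all 5 arrays, with 1 spot each for Hk1, Aldoa, Pgk1, Pkm and Ldha and 2 for Ldhb. The other 3 spots, of Aldoa, Pkm and Ldha, were measured on fewer arrays. No spot was listed for Hk2, Gpi1 and Eno1, and the only spot listed for Pgam1 also carries another gene's symbol and was not used.

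Each array set total RNA of wild-type mice in channel 1 against RNA of Rb- mutant mice in channel 2, and the series title speaks of explants, meaning retina cultured as a tissue piece. Rb is the retinoblastoma tumour suppressor, which restrains entry into S phase. The 5 arrays form a single group, numbered 1 to 5 in order of deposition. The allele, the strain, the age, the days in culture and whether the arrays came from separate animals are facts the labels leave out, so p-values reflect the scatter of these arrays alone, which may be technical. Dyes and dye swaps are likewise unstated. Log2 ratios are therefore given with the sign as deposited, and neither sign is assigned to the mutant. A ratio carries no level, so the members could not be ordered by abundance and the tissue could not be checked by the level of its markers.

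Glycolysis splits glucose into pyruvate in the cytosol and yields ATP without oxygen. Hexokinase traps glucose as its phosphate, aldolase splits the sugar, phosphoglycerate kinase and pyruvate kinase make ATP, and lactate dehydrogenase interconverts pyruvate and lactate while recycling NAD. The retina is known for aerobic glycolysis, the conversion of much of its glucose to lactate even when oxygen is present, and photoreceptors are a major site of it. Lactate dehydrogenase is a tetramer of the A subunit, encoded by Ldha, and the B subunit, encoded by Ldhb. Hypoxia-inducible factor and the Myc proteins are textbook regulators of several of these genes. Core DNA sites of the factor read ACGTG or GCGTG, and the Myc site CACGTG contains ACGTG.

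The upstream sequences of the lactate dehydrogenase genes and of Pgk1 are shown because the ratio of Ldha lay below the mean of the Ldhb spots on all 5 arrays, while Pgk1, a classical target of hypoxia-inducible factor, had a mean ratio close to 0. Each is the 250 bases before an annotated start, from RefSeq on GRCm38.p6, written along the gene's strand, with ACGTG and GCGTG on either strand in capitals. They lie at chr7:46845554-46845803 (+) for Ldha, chr6:142507958-142508207 (-) for Ldhb and chrX:106186850-106187099 (+) for Pgk1.
Ldha: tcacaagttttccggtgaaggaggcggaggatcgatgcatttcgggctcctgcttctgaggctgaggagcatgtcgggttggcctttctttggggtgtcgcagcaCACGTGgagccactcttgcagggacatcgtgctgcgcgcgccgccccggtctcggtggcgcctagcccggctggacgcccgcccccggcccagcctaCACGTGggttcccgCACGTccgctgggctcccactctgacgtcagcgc
Ldhb: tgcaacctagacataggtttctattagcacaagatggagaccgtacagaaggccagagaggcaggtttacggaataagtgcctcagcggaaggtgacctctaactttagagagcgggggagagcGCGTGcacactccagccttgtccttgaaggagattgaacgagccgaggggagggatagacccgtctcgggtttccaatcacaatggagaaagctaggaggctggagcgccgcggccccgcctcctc
Pgk1: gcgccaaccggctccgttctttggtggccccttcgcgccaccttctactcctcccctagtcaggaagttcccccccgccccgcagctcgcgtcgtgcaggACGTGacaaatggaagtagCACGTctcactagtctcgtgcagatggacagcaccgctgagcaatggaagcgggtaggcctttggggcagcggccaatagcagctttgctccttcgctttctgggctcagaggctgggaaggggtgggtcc
This Ldha window held 5 matches to ACGTG, because each of its 2 CACGTG palindromes reads as ACGTG on both strands and 1 further match lies outside them. The Ldhb window held none and had 1 match to GCGTG, and the Pgk1 window held 2 matches to ACGTG and no CACGTG. Over the 6 measured genes, 4 had ACGTG in at least 1 of their 11 listed windows, namely Ldha, Aldoa, Pkm and Pgk1, and 5 of the 11 windows held it, of which 2 Aldoa windows overlap and share the same match. Hk1, Ldha and Ldhb had GCGTG, in 3 windows. ACGTG was present in 16.57% of all 32851 windows of this length, GCGTG in 28.2% and CACGTG in 6.02%. A match describes letters in the window only, and its link to the ratios was not tested. The other listed Ldha window held no ACGTG and 1 match to GCGTG.

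No member passed the test. Of the 10036 spots tested with limma, 0 had a Benjamini-Hochberg adjusted p under 0.05 (0%), and 0 of the 7 member spots did. The unmoderated test also called 0 in all. With the main processing there were 0 of 7 member spots at an unadjusted p under 0.05. The share was 11.4% of all tested spots, 5.90% negative and 5.52% positive. Negative means were found for 4 of the 7 member spots, against 60.4% of all tested spots and 65.8% of those with a single symbol, so the members' share of negative means was near the background. The members are therefore described by their values on each array. Usable ratios covered 12444 to 13145 spots per array, and precision is limited by having 5 arrays that scatter widely.

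**Figure D1:**
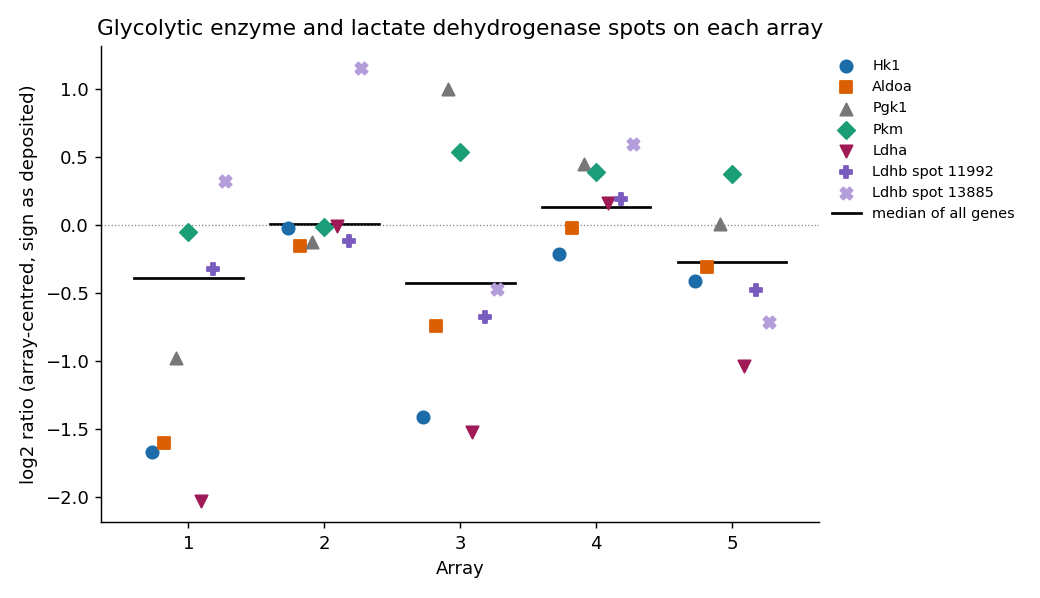
Log2 ratio of each of the 7 member spots (symbols) on arrays 1 to 5, centred on each array's median, with the sign as deposited; black bars mark the median of all 3739 genes. Ldha and Hk1 lie far below the bar on arrays 1 and 3 and closer to it on arrays 2 and 4, while Pkm stays between -0.05 and 0.54.

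Hk1 encodes hexokinase 1, which commits glucose to the pathway at the mitochondrial surface. In log2 units its spot measured -1.67, -0.02, -1.41, -0.21 and -0.41, in the order of arrays 1 to 5 that is kept below. All 5 were negative, clearly so on arrays 1 and 3 and close to 0 on array 2. The mean was -0.75 ± 0.75 (SD, n = 5), with a 95% interval from -1.57 to 0.08 and a limma adjusted p of 0.441. On array 1, 9.71% of all tested spots had a lower ratio than Hk1, on array 3 13.7%, and on array 2 49.6%. Because named genes as a whole lay off the array centre, with a median of all genes of -0.39, 0.01, -0.43, 0.13 and -0.27 on arrays 1 to 5, Hk1 was also set against that median. Relative to it, Hk1 had -1.28, -0.03, -0.98, -0.34 and -0.14, below it on all 5 arrays with a mean of -0.55 ± 0.55 (SD, n = 5). Without arrays 1 and 3 the mean of Hk1 was -0.22. Hk2, a hexokinase that photoreceptors are known to use, had no listed spot, so the 2 hexokinases could not be compared.

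Aldoa encodes aldolase A, which splits fructose bisphosphate into the triose phosphates. The spot measured on all arrays gave -1.61, -0.15, -0.74, -0.02 and -0.31 log2. Like Hk1 it was negative on all 5 arrays, with array 1 lowest and array 4 nearest to 0. Its mean was -0.57 ± 0.64 (SD, n = 5), with a 95% interval from -1.33 to 0.19 and a limma adjusted p of 0.47. Array 1 carried much of this mean, which was -0.31 without it and -0.16 without arrays 1 and 3. Relative to the median of all genes Aldoa had -1.21, -0.16, -0.31, -0.15 and -0.04, so that only array 1 placed it far below that median. Another Aldoa spot gave values on arrays 2 and 4 alone, 0.32 and 4.23, where the spot above had -0.15 and -0.02. The spots of this gene disagreed on array 4 by more than any of the 7 spots measured on all arrays varied between arrays. Hk1 and Aldoa were the 2 of 7 member spots with the same sign on all 5 arrays, a pattern found in 15.3% of the 6753 spots measured on all 5.

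Pgk1 encodes phosphoglycerate kinase 1, the enzyme of the earlier ATP-making step. Its log2 ratios were -0.98, -0.13, 1.00, 0.45 and 0.01. Arrays 1 and 3, which resembled each other for Hk1 and Ldha, lay at opposite ends for Pgk1. Its mean was 0.07 ± 0.74 (SD, n = 5), with a 95% interval from -0.75 to 0.89 and a limma adjusted p of 0.933, and its sign turned negative, to -0.39, when the arrays were not centred. The interval allows a difference of either sign of the size seen for Hk1. Relative to the median of all genes Pgk1 was -0.59, -0.14, 1.43, 0.32 and 0.28, and on array 3 82.9% of tested spots had a lower ratio. Without array 3 its mean was -0.16, and without array 1 it was 0.33.

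Pkm encodes the M-type pyruvate kinase, which makes pyruvate and ATP and is spliced into the M1 and M2 forms. The spot measured on all arrays gave -0.05, -0.02, 0.54, 0.39 and 0.37 log2. It had the narrowest spread among the members, with none of the low values that Hk1, Aldoa and Ldha had on array 1. The mean was 0.25 ± 0.26 (SD, n = 5), with a 95% interval from -0.33 to 0.82 and a limma adjusted p of 0.644, and it became -0.21 without centring. Relative to the median of all genes it was above on 4 of 5 arrays, at 0.34, -0.02, 0.97, 0.26 and 0.64, a mean of 0.44 ± 0.38 (SD, n = 5). The other Pkm spot was measured on arrays 1, 2 and 4, at 5.96, 0.61 and 2.09. These values were higher than those of the spot above on each of these arrays, by the widest margin on array 1, where 99.8% of tested spots had a lower ratio. Which splice form either spot detects is not given in the sources used here.

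Ldha encodes the A subunit of lactate dehydrogenase, known to favour the step from pyruvate to lactate. Its log2 ratios were -2.03, -0.01, -1.52, 0.16 and -1.04. These fell apart into low values on arrays 1, 3 and 5 and values near 0 on arrays 2 and 4. The mean, -0.89 ± 0.95 (SD, n = 5), was the most negative among the 7 member spots, with a 95% interval from -1.85 to 0.07 and a limma adjusted p of 0.441. On arrays 1, 3 and 5, 6.48%, 11.8% and 11.1% of tested spots lay lower, compared with 50.7% and 57.5% for arrays 2 and 4. Relative to the median of all genes Ldha had -1.64, -0.02, -1.09, 0.03 and -0.77. Left without arrays 1 and 3 its mean was -0.30 with an adjusted p of 0.811. The other Ldha spot was measured on array 3 alone, at 0.75, where the spot above had -1.52.

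Ldhb encodes the B subunit, known to favour the step from lactate to pyruvate. Spot 11992 gave -0.32, -0.12, -0.68, 0.19 and -0.48 log2, and spot 13885 had 0.32, 1.16, -0.47, 0.59 and -0.72. Array 4 was positive and arrays 3 and 5 negative for both spots, while arrays 1 and 2 differed in sign between them. The means were -0.28 ± 0.33 and 0.18 ± 0.77 (SD, n = 5 each), with limma adjusted p of 0.615 and 0.824. The 95% intervals ran from -0.88 to 0.32 and from -0.66 to 1.02. Without array 3 the mean of spot 11992 was -0.18. Without centring the mean of spot 13885 was -0.28, and without array 2 it was -0.07. Spot 13885 minus spot 11992 was 0.65, 1.28, 0.21, 0.41 and -0.24, a mean of 0.46 ± 0.56 (SD, n = 5) for which a two-sided permutation test by exact sign flips gave p = 0.188. Array 2 carried much of this difference, which was 0.26 without it. Spot 11992 lay between -0.25 and 0.07 relative to the median of all genes, with a mean of -0.09 ± 0.15 (SD, n = 5) relative to it.

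**Figure D2:**
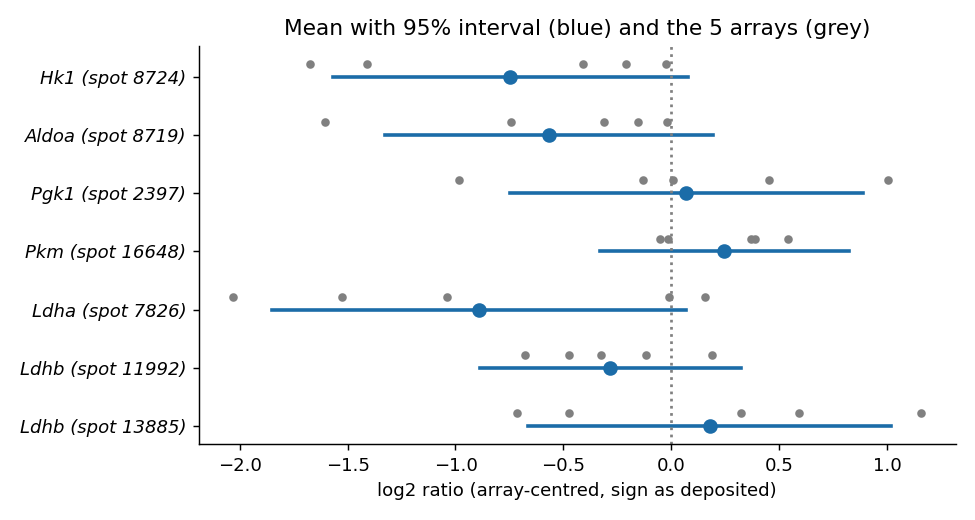
Mean log2 ratio of each member spot (blue points) with its 95% interval from limma (blue lines) and the values of the 5 arrays (grey points), sign as deposited. All 7 intervals include 0, and Ldha and Hk1 reach furthest to the negative side.

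The ratio of the A subunit was set against that of the B subunit within each array, where the centring of the array cancels. Ldha minus the mean of both Ldhb spots was -2.03, -0.53, -0.95, -0.23 and -0.44 on arrays 1 to 5. It was negative on all 5 arrays, furthest from 0 on array 1 and closest on array 4. The mean difference was -0.84 ± 0.72 (SD, n = 5), and the two-sided permutation test by exact sign flips gave p = 0.0625, the smallest that 5 arrays allow, so this design could not reach 0.05. Array 1 moved this mean the most, and without it the difference was -0.54. Without arrays 1 and 3 it was -0.40. The scan groups, arrays 1 to 3 at one focus position and arrays 4 and 5 at another, gave -1.17 and -0.34. Ldha was taken from the spot measured on all arrays. Its other spot, on array 3 alone, was not used, and at 0.75 it lay above both Ldhb spots there (-0.68 and -0.47). Choice of the Ldhb spot mattered for the count of arrays. Against spot 13885 the difference was negative on all 5 arrays, at -2.35, -1.17, -1.05, -0.43 and -0.33 with a mean of -1.07 and an exact permutation p of 0.0625. Against spot 11992 it was -1.71, 0.11, -0.85, -0.03 and -0.56, a mean of -0.61 ± 0.73 (SD, n = 5) with an exact permutation p of 0.188. Without array 1 that mean was -0.33.

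**Figure D3:**
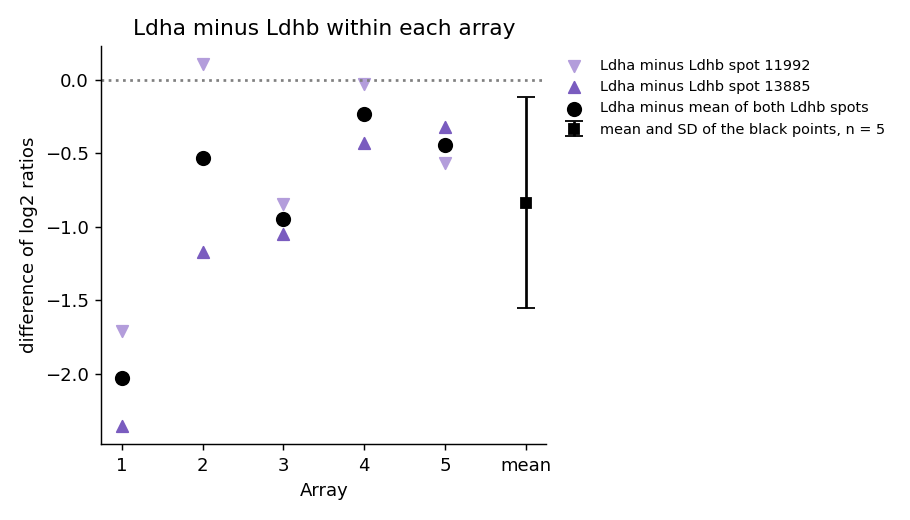
Log2 ratio of Ldha minus that of Ldhb on arrays 1 to 5, against each Ldhb spot (triangles) and against their mean (black circles), with the mean and SD of the circles at the right. All 5 circles lie below 0, from -2.03 on array 1 to -0.23 on array 4, and 1 triangle, on array 2, lies above it.

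Arrays 1, 3 and 5 had deposited medians of -0.755, -0.715 and -0.742, and arrays 2 and 4 had -0.025 and -0.0575. The low ratios of several members followed this division of the arrays even after each array was centred. For 5 of the 7 member spots, those of Hk1, Aldoa, Ldha and both of Ldhb, the ratios on arrays 1, 3 and 5 all lay below those on arrays 2 and 4. The same held for 37.3% of the 4420 single-symbol spots measured on all 5 arrays. Pgk1 and Pkm did not follow it, with array 3 as their highest array. The median of all genes was itself lower on arrays 1, 3 and 5. Relative to that median, only Ldha kept these arrays below arrays 2 and 4. Hk1 was then -0.34 on array 4 and -0.14 on array 5. Aldoa was highest on array 5, at -0.04, and Ldhb spot 11992 on array 1, at 0.07. Negative ratios on all of arrays 1, 3 and 5 were found for 4 of the 7 member spots, against 42.5% of those 4420 spots. This division of the arrays was noticed in the data, and its part in the ratios of the members was not tested.

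The median of the 6 genes as a set lay near that of all genes except on array 1. Single genes lay further off on both sides, on array 3 from -1.09 for Ldha to 1.43 for Pgk1 relative to all genes. The set's median relative to that of all 3739 genes ran -0.90, -0.03, -0.23, 0.14 and -0.09, averaging -0.22 ± 0.40 (SD, n = 5). Of the 6 genes, 4, 5, 4, 2 and 4 were lower than the all-gene median. Without array 1 the mean of this median was -0.05, and without arrays 1 and 3 it was 0.01. Within the scan groups, the mean over arrays 1 to 3 was further from 0 than that over arrays 4 and 5 for the members with negative means. Ldha had -1.19 and -0.44 in the 2 groups, Hk1 -1.04 and -0.31, Aldoa -0.83 and -0.17, and Ldhb spot 11992 -0.37 and -0.14. Among the others, Pgk1 had -0.04 and 0.23, Pkm 0.16 and 0.38, and Ldhb spot 13885 0.34 and -0.06. The member spots ranged most widely on array 3, from -1.52 for Ldha to 1.00 for Pgk1, and on array 1, from -2.03 for Ldha to 0.32 for Ldhb spot 13885. They lay closest together on array 4, from -0.21 to 0.59. Arrays also differed in the spread of all tested spots, with scaled median absolute deviations of 1.14, 0.63, 1.14, 0.74 and 0.79, which limits the comparison of log2 sizes across arrays.

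Markers of rods and cones had their lowest ratios on arrays 1 and 3, as did Hk1 and Ldha. Of the 27 rod genes listed, 15 were measured on all arrays, and 15, 7, 12, 12 and 5 of them were lower than the all-gene median. The rod median relative to all genes was -2.88, 0.07, -2.85, -0.53 and 0.29. The 7 cone genes gave -0.94, 0.29, -1.13, 0.33 and -0.16, and the 18 genes of replication and S phase 1.82, -0.08, 2.02, 0.65 and 0.04. Relative to all genes, Ldha and Hk1 were far below on arrays 1 and 3, and Aldoa on array 1. Pgk1 and Pkm were above all genes on array 3, at 1.43 and 0.97. On array 4, where 12 of the 15 rod genes were lower, Ldha lay at 0.03, Aldoa at -0.15 and Hk1 at -0.34. Ldha was also low on array 5, where the rod median was above that of all genes. The part of these cell types in the ratios of the members was not tested. In RNA of whole tissue, fewer cells of a type and less RNA per cell cannot be told apart. The median of the 8 Muller glia genes relative to all genes was 0.09, -0.21, -0.03, 0.08 and 0.09, with single genes on both sides. Their 13 tested spots had 8 negative and 5 positive means, against 65.8% negative among all single-symbol spots. Rlbp1 had a mean log2 ratio of -0.77 and Sox9 of 0.59. Markers of other tissue were too few to describe, with 1 microglial gene and no gene of blood, pigment epithelium or lens measured on all 5 arrays. Rb1, the gene that encodes Rb, had -0.07, 0.20, -0.23, 0.04 and -0.08 by the spot measured on all arrays, and its other spot had 0.95, 2.06, -1.33 and 1.72 on arrays 1, 2, 3 and 5. Which part of the RNA either spot detects is not known.

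**Figure D4:**
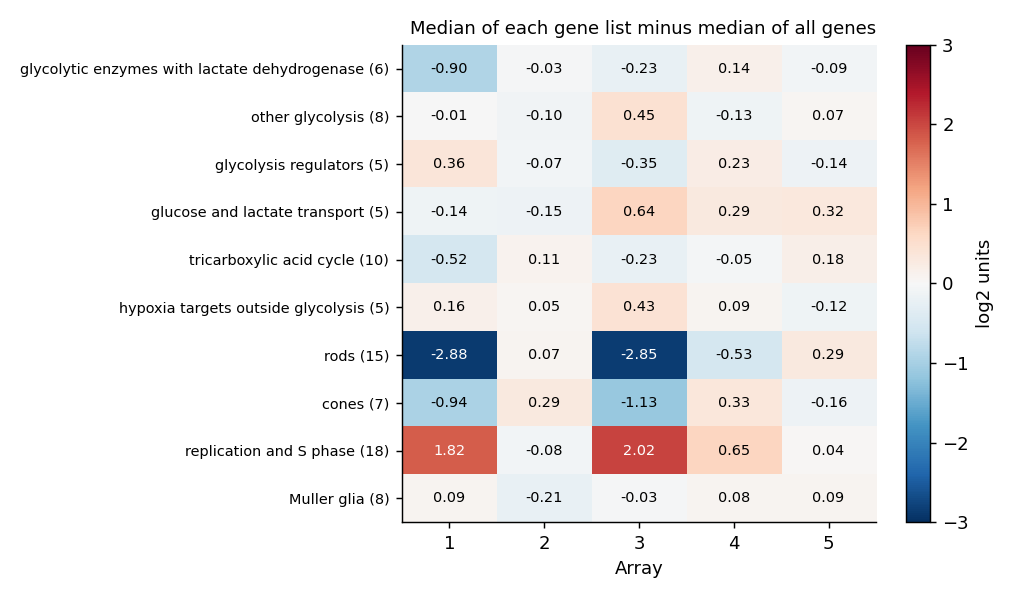
Median log2 ratio of each gene list minus the median of all genes on arrays 1 to 5 (colour and printed value, log2 units), for lists with at least 5 genes measured on all 5 arrays (number in brackets). The glycolytic enzymes lie at -0.90 on array 1 and between -0.23 and 0.14 elsewhere, whereas the rod genes lie at -2.88 and -2.85 on arrays 1 and 3.

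The median of the other enzymes of glycolysis lay close to that of all genes on array 1, where the median of the members was low. Single enzymes lay well away from it on both sides there, as Pfkm and Eno2 show below. Of 22 listed genes 9 had a tested spot, and 0 of their 11 spots passed limma's test, with 10 negative and 1 positive mean against 65.8% negative among all single-symbol spots. The 8 measured on all arrays had medians relative to all genes of -0.01, -0.10, 0.45, -0.13 and 0.07. Pfkm, the muscle-type phosphofructokinase, had -2.67, -0.87, -1.74, 0.79 and 1.26 on arrays 1 to 5. Its other spot, on 4 arrays, had -1.67, -0.49, 1.28 and 0.73 on arrays 1, 2, 3 and 5. The liver-type Pfkl had -0.72, -0.14, -0.73, -0.11 and 0.11. Eno2, the neuronal enolase, ran the other way, with 0.91, -1.39, 0.17, -1.45 and -1.72, positive on arrays 1 and 3. None of these differences between members and other enzymes was tested.

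Transporters of glucose and lactate differed among themselves. Slc16a1, the monocarboxylate transporter MCT1 that carries lactate and pyruvate, gave -0.96, -0.29, -1.35, -0.05 and -0.94 log2 by the spot measured on all arrays. As for Ldha, its ratios on arrays 1, 3 and 5 lay below those on arrays 2 and 4. That order held for 37.3% of the 4420 single-symbol spots measured on all 5 arrays. The mean of this Slc16a1 spot was -0.72 ± 0.53 (SD, n = 5) with a limma adjusted p of 0.435. Its other spot went the other way on arrays 3 and 5, with -0.19, 2.06 and 1.88 on arrays 2, 3 and 5. Bsg, which encodes basigin, the partner that brings monocarboxylate transporters to the cell surface, had 0.93, -0.15, 0.63, 0.89 and 0.59, a mean of 0.58 ± 0.43 (SD, n = 5) with an adjusted p of 0.442. Of the 6 tested spots of 5 genes in this list 0 passed.

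Genes that take pyruvate onward into mitochondria had mostly negative means, as did most single-symbol spots, and none passed. Pdhb, the beta subunit of pyruvate dehydrogenase E1, had means of -0.57 and -0.45 on its 2 spots, with -0.72, -0.39, -1.03, -0.11 and -0.59 on the former. Of the 5 spots of its list 4 had a negative mean, and in the tricarboxylic acid cycle 12 of 15 did. Of both lists 0 spots passed limma's test. At an unadjusted p under 0.05 there were 0 and 2 spots, against 11.4% of all tested spots. Of these 2 spots, that of Mdh2 had a negative mean and that of Cs a positive one. Mdh2, the mitochondrial malate dehydrogenase, had 5 negative values and a mean of -0.70 ± 0.39 (SD, n = 5, limma adjusted p = 0.432). Citrate synthase, Cs, had means of 0.84, -0.06 and -0.38 on its 3 spots, which disagree in sign.

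Regulators of the pathway were also described by their spots, 0 of 10 of which passed. Hif1a, the oxygen-regulated subunit of hypoxia-inducible factor 1, had -0.04, -0.34, -0.78, 0.01 and -0.42 on one spot and, on 4 arrays, a mean of 0.36 on the other. Mlx, a partner of glucose-responsive transcription factors, had means of -0.60 and 0.33 on its 2 spots. Relative to all genes the list median was 0.36, -0.07, -0.35, 0.23 and -0.14 on arrays 1 to 5, with no common direction.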

How the data were processed

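The arrays were scanned at 635 and 532 nm and read with GenePix Pro 4.1.1.29, which subtracted the local background and applied no normalization, per the labels. The deposited values are log2 ratios, a scale inferred from the values because no label states it. Which spots the authors left empty, and why, is not stated, nor are dyes and dye swaps. Entries of 16.61, treated as placeholders, occurred 106 to 141 times per array and were set to missing, leaving 71.8% to 75.9% of spots. Each array was centred on its median. Symbols came from the platform annotation, and all 10 annotated member spots matched a RefSeq gene (GRCm38.p6). Control spots (ACTB) entered no test.

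Spots on at least 4 arrays were tested against 0 with limma 3.58.1 (R 4.3.3; lmFit with an intercept, eBayes) and Benjamini-Hochberg adjustment over all 10036 spots, at 0.05. This test was tested on simulated data. Ldha minus Ldhb was tested with an exact sign-flip permutation test. Hk1 minus Hk2 could not be run because Hk2 has no listed spot. A gene's value is the mean of its spots measured on all 5 arrays. Members and lists were chosen with earlier results of these data known. Of each other list, up to 4 genes with the smallest limma p could be named. Promoter windows were read from RefSeq sequences.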

Additional observations from a re-analysis of the deposited data

How the results depend on the processing

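Across 18 alternatives, which covered centring, scaling, the filler, the filter on missing values, left-out arrays, scan focus and the test, limma called 0 spots in all and 0 member spots, and the means of Hk1, Aldoa, Ldha and Ldhb spot 11992 kept their sign. Ldha ran from -1.35 to -0.30, with adjusted p from 0.209 to 0.952. Unadjusted limma p fell under 0.05 for Ldha, Hk1 or Aldoa under some alternatives. Without centring it was 0.029, 0.031 and 0.0499 for these genes. With scan focus as a random block it was 0.026 for Ldha and 0.029 for Hk1. The share of all spots under 0.05 was not counted for these alternatives. Means close to 0 turned negative under some alternatives, none past the threshold. Without centring Pgk1 was -0.39, Ldhb spot 13885 -0.28 and Pkm -0.21, where the median of all genes shifted by -0.46. Centring on the spots measured on all arrays shifted that median by 0.15. Pgk1 was -0.036 on arrays 1 to 3 alone, and Ldhb spot 13885 was -0.061 on arrays 4 and 5 alone. Leaving out each array in turn gave -0.16 to 0.33 for Pgk1 and -0.068 to 0.40 for Ldhb spot 13885. Ldha minus Ldhb ran from -1.17 to -0.34. Among these alternatives its sign could change only with quantile normalization (-0.97) or the choice of Ldhb spot (-0.61 and -1.07). Centring cancels within an array, and all 5 arrays were negative by the Ldha spot used. The Ldha spot measured on array 3 alone, at 0.75, entered no alternative for this difference. Values of the difference against single Ldhb spots without each array were added after seeing the data. The median of the members was -0.39 to 0.03 relative to all genes. Scan focus as a random block gave an estimated correlation of -0.18. No paired analysis was possible because the arrays form 1 group, which leaves no second group to share replicate numbers with. Each ratio is already a difference within an array. No intensities were used, so signal over background is unknown for every spot.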

Other observations

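Genes that meet glycolysis at its side branches were measured as well. Got1, the cytosolic aspartate aminotransferase that carries reducing equivalents from glycolysis to mitochondria, had negative means of -0.81 and -0.96 on its 2 spots, lowest on array 1 at -2.08 and -3.82. In the pentose phosphate pathway Tkt, transketolase, had a mean of 0.16 ± 0.32 and Taldo1, transaldolase, -0.33 ± 0.56 (SD, n = 5 each). Among hypoxia-responsive genes outside glycolysis, Ndrg1 had log2 ratios of -2.78, 0.18, -2.67, -0.50 and -1.11 on one spot and -1.44, 0.08, -1.70, -0.06 and 0.32 on the other. Vegfa, the vascular growth factor, had 0.94, -0.12, 0.81, 0.37 and -0.19, so that on arrays 1 and 3 it lay on the other side of 0 from Ndrg1 and Ldha. Its other spot gave 0.11, 0.60, -0.30, 0.17 and -0.22. None of the 16 spots of these lists passed limma's adjusted threshold. Only 1, the former Ndrg1 spot, had an unadjusted limma p under 0.05, against 11.4% of all tested spots.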
